A study of Mus musculus with 12 samples.

Results

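The genes described here are Trp53, which encodes the transcription factor p53, and 6 genes whose products act back on it: Mdm2, Mdm4, Ppm1d, Ccng1, Trp53inp1 and Gtse1. They were taken by name (TRP53, MDM2, MDM4, PPM1D, CCNG1, TRP53INP1 and GTSE1) from the deposited expression tables, and all 7 were listed in both, among 10648 genes in mock cells, 11125 genes after doxorubicin and 10292 genes common to both. RNA was sequenced from primary mouse embryonic fibroblasts (MEFs), cells grown from embryos, on a hybrid 129/B6 background. The 4 groups were lincRNA-p21-/- cells with doxorubicin (KO dox), lincRNA-p21+/+ cells with doxorubicin (WT dox), lincRNA-p21-/- mock cells (KO mock) and lincRNA-p21+/+ mock cells (WT mock), with 3 biological replicates each. Doxorubicin, an anthracycline that breaks DNA, was given for 24 h at a dose that the labels state as 0.5 mM, a unit that is in doubt. LincRNA-p21 is a long noncoding RNA transcribed beside Cdkn1a and induced by p53, and its own level was not analysed here. The labels do not say from how many embryos or lines the replicates came, nor what a shared replicate number stands for.

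p53 is held at a low level in undamaged cells because Mdm2, a ubiquitin ligase, marks it for degradation, and Mdm4, a relative of Mdm2, covers its activation domain. DNA damage frees p53, which then switches on its target genes, Mdm2 among them, so that the response carries its own brake. Ppm1d (also called Wip1) is a phosphatase that removes activating phosphates from p53 and from the damage kinases. Cyclin G1, the product of Ccng1, brings the phosphatase PP2A to Mdm2. Trp53inp1 encodes a stress protein that promotes p53 phosphorylation in human cells and is the positive arm among these genes. Gtse1 encodes a microtubule-associated protein of the S and G2 phases that carries p53 out of the nucleus in human cells. All values here are of RNA, so the level and modification of the proteins, through which most of this circuit works, were not measured.

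Because p53 binds DNA at paired copies of a decamer, the promoters of the members were read for that decamer before their expression is described. RefSeq promoter windows on GRCm38.p6 (250 bases before to 50 bases after a start) were matched for 6 of the 7 members. They were searched for exact matches to the p53 consensus decamer, which reads alike on both strands. It was found in a window of 5 of those 6, Trp53, Mdm2, Ppm1d, Ccng1 and Gtse1, and in neither window of Mdm4, compared with 9.55% of 27025 genes and 8.36% of 32851 windows. A match is a string of letters and not a site shown to be bound. The stretches below are those of the 5 members with a match, before the start in all but Gtse1. Matches are in capitals and, except for Gtse1, annotated exons are left out. Any part of the matches in the expression results was not tested. The Trp53 stretch is chr11:69580256-69580358 on the plus strand, with the match beginning 75 bases before the start. That of Mdm2 is chr10:117710759-117711008 on the minus strand (186 bases before the start), that of Ppm1d chr11:85311004-85311243 on the plus strand (132 bases before) and that of Ccng1 chr11:40755312-40755536 on the minus strand (185 bases before). For Gtse1 the match lies at base 10 after the later of its starts, in chr15:85859945-85859974 on the plus strand.
Trp53: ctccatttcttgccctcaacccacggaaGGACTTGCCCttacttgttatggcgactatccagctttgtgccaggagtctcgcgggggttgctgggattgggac
Mdm2: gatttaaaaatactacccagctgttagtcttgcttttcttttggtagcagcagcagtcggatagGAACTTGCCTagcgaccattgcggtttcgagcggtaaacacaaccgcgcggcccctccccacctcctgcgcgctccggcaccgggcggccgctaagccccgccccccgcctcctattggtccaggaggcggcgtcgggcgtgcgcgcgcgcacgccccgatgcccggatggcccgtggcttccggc
Ppm1d: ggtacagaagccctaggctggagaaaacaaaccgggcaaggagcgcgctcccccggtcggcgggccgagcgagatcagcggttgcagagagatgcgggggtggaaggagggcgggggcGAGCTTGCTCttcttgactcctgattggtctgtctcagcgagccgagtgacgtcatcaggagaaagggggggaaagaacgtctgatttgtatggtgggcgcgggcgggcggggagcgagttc
Ccng1: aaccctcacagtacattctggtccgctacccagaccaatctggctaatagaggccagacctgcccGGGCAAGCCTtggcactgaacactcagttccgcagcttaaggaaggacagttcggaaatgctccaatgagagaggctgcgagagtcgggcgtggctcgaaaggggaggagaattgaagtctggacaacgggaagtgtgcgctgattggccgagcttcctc
Gtse1: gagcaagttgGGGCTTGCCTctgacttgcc
No member window held a pair of exact matches 0 to 13 bases apart, an arrangement found in 24 windows (0.0731%). Decamers with a mismatch were not counted, and sequence outside the windows was not searched. The members may therefore hold paired sites that this search missed. In the Ccng1 stretch, for instance, the bases directly before the match (agacctgccc) come close to the decamer without matching it. The window of Cdkn1a, the p53 target that encodes p21, was among those 24.

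Library totals ran from 14327048 to 20511907 reads, and the members held from 189 reads (the lowest library of Ppm1d) to 32897 reads (the highest of Ccng1). Values are CPM, the reads of a gene scaled to the total of its library, so they are shares of the RNA of a library, in which fewer cells of a type and less RNA per cell cannot be told apart. Fibroblast markers were listed for 11 of 12 genes, with summed levels of 31435 to 39662 CPM in KO dox, 33919 to 41573 in WT dox, 50898 to 63704 in KO mock and 59158 to 68279 in WT mock. Of the blood markers only Cd68 of 6 was listed, at 45.4 to 112 CPM in KO dox, 49.2 to 126 in WT dox, 2.42 to 58.3 in KO mock and 2.84 to 29.2 in WT mock. Of the endothelial markers only Kdr of 5 was listed, at 24.7 to 35.0 CPM in KO dox, 29.6 to 30.8 in WT dox, 2.26 to 7.68 in KO mock and 3.70 to 4.47 in WT mock. Epithelial markers (Krt18, 1 of 5 listed) lay at 3.75 to 24.8 CPM in KO dox, 6.07 to 21.7 in WT dox, 0.958 to 13.8 in KO mock and 4.11 to 7.97 in WT mock. Muscle markers (3 of 5) summed to 25.3 to 57.7, 47.2 to 214, 37.0 to 197 and 82.6 to 449 CPM in the same order of groups, and neural markers (2 of 5) to 408 to 573, 449 to 595, 210.4 to 528 and 227 to 457 CPM. The part of these markers in the results below was not tested.

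Relative to exon length the group means of the members kept 1 order in all 4 groups, which single libraries did not always keep. Ccng1 was highest, at 474 ± 40.5 CPM per kb of exon in KO dox, 434 ± 21.3 in WT dox, 254 ± 14.4 in KO mock and 243 ± 28.2 in WT mock (SD, n = 3 each). Mdm2 followed at 295 ± 1.06, 278 ± 34.0, 80.0 ± 10.7 and 80.1 ± 6.63 CPM per kb in the same order of groups, and Trp53 at 118 ± 22.5, 151 ± 31.7, 76.5 ± 11.8 and 66.4 ± 6.11. Mdm2 and Trp53 thus lay within their spread of each other in KO mock cells and well apart after doxorubicin, when Trp53 in KO cells overlapped the next gene instead. Trp53inp1 was at 82.6 ± 20.4 CPM per kb in KO dox, 83.6 ± 19.9 in WT dox, 33.1 ± 15.1 in KO mock and 28.8 ± 7.89 in WT mock, and Gtse1 at 55.0 ± 8.82, 64.5 ± 8.57, 27.5 ± 3.64 and 25.4 ± 1.33. This pair lay within its spread in all 4 groups. Ppm1d, at 10.7 ± 2.06 CPM per kb in KO dox, 16.4 ± 3.23 in WT dox, 4.69 ± 1.06 in KO mock and 4.45 ± 0.442 in WT mock, was level in mock cells with Mdm4, at 5.38 ± 2.46, 4.32 ± 2.52, 4.65 ± 1.44 and 4.35 ± 0.903. The gap between the rarest and the commonest member is therefore wide in every group.

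**Figure D1:**
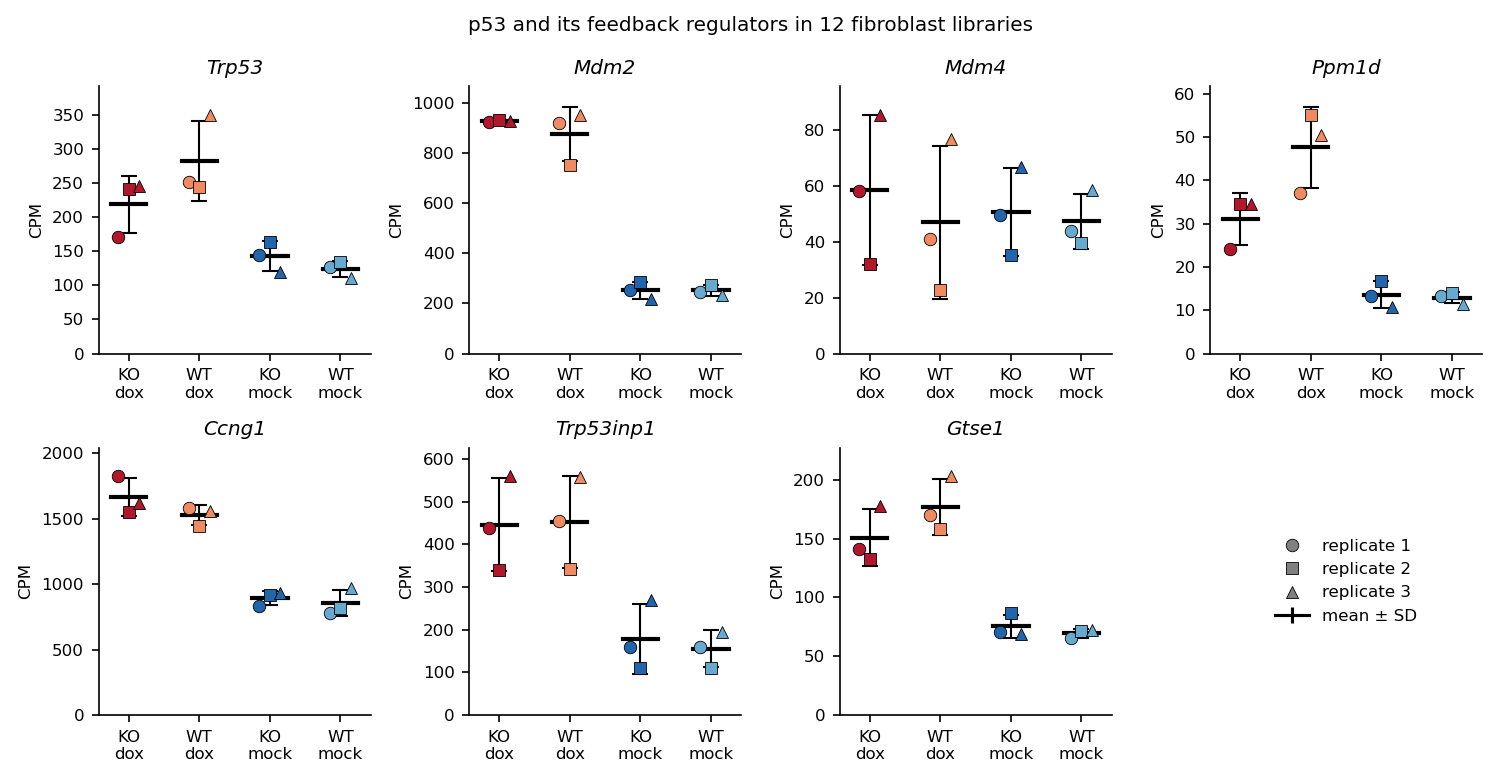
Level of each member in CPM (vertical axis, from 0) in the 12 libraries, grouped as KO dox, WT dox, KO mock and WT mock, with 1 symbol per replicate number and bars for the mean ± SD (n = 3). All but Mdm4 sit higher after doxorubicin than in mock cells in both genotypes, with no overlap.

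Doxorubicin against mock was the first comparison, and it asks how the p53 circuit responds to DNA damage in each genotype. Of the 7 members 6 rose in both KO and WT cells and Mdm4 did not pass (limma on log2(CPM + 1), all genes adjusted by Benjamini-Hochberg, threshold 0.05). The same call with the same sign was made for 19.9% of all genes in KO and 25.9% in WT. In each of the 6 genes every doxorubicin library lay above every mock library of its genotype, as was the case for 27.1% of genes in KO and 29.4% in WT. Over all genes 2052 were called higher and 1500 lower in KO, and 2664 and 2199 in WT. Centring each library on its median moved every difference by -0.084 in KO and -0.11 in WT on the log2 scale, and changed these splits to 1669 and 2027 in KO and 2202 and 2944 in WT, with the same 6 members higher.

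**Figure D2:**
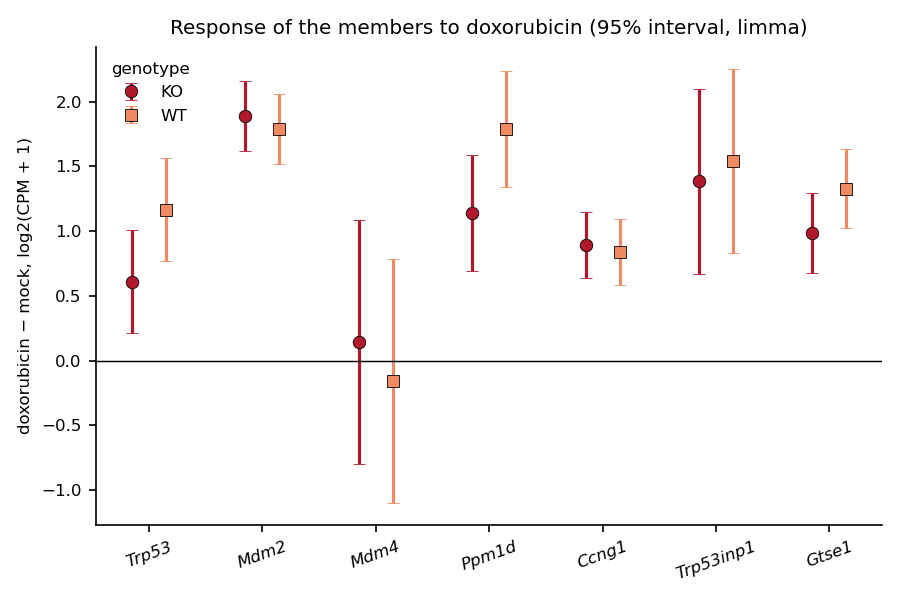
Log2 difference between doxorubicin and mock cells (vertical axis, log2(CPM + 1) scale) for each member, KO left of WT, with 95% intervals from limma. Mdm2 has the highest point among the KO values at 1.89, and the Mdm4 intervals span 0 in both genotypes.

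Trp53 itself was the first of these. It was at 171, 242 and 246 CPM in KO dox libraries (replicates 1 to 3), against 144, 164 and 120 CPM in KO mock libraries. In WT it was at 252, 245 and 351 CPM with doxorubicin, against 127, 134 and 112 CPM in mock. The doxorubicin libraries were higher in each genotype, and KO replicate 1 came closest to the mock level. The log2 difference was 0.61 in KO (SE 0.18, adjusted p = 0.0228) and 1.17 in WT (SE 0.18, adjusted p = 0.000421). The KO call rested on single libraries, since it was lost without KO mock replicate 1 (adjusted p = 0.0530), KO mock replicate 3 (0.0820), KO dox replicate 2 (0.0778) or KO dox replicate 3 (0.0863), all by limma. Per same-numbered pair, the log2 difference was 0.24, 0.56 and 1.03 in KO and 0.98, 0.87 and 1.65 in WT.

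Mdm2, the ubiquitin ligase of p53, was the member with the steepest rise in KO cells. Its KO dox libraries were at 925, 932 and 928 CPM, against 253, 284 and 217 CPM in KO mock. Its WT dox libraries were at 918, 753 and 953 CPM, against 246, 275 and 235 CPM in WT mock. The KO dox libraries were nearly level with one another, and WT dox replicate 2 was the lowest of the treated libraries. The log2 difference was 1.89 in KO (SE 0.12, adjusted p = 1.26e-05), a fold of 3.70 on the CPM + 1 scale, and 1.79 in WT (SE 0.12, adjusted p = 6.24e-06), a fold of 3.45. Counted within a library, there were 3.77 to 5.41 Mdm2 reads for each Trp53 read in KO dox and 1.73 to 1.80 in KO mock, and 2.72 to 3.64 in WT dox and 1.94 to 2.10 in WT mock. These read ratios, which do not depend on the library total and were not tested, did not overlap between any pair of groups. How often the ratio of 2 genes separates the groups was not counted. The ratio of Mdm2 to Ccng1 reads did overlap between genotypes. It was 0.508 to 0.602 in KO dox and 0.523 to 0.612 in WT dox, and 0.234 to 0.310 in KO mock and 0.243 to 0.337 in WT mock.

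Mdm4, which inhibits p53 without acting as a strong ligase of its own, did not follow Mdm2. It was at 57.9, 32.0 and 85.4 CPM in KO dox, against 49.5, 35.4 and 66.6 CPM in KO mock. In WT it was at 41.1, 22.8 and 76.7 CPM with doxorubicin, against 43.9, 39.5 and 58.3 CPM in mock. The treated and mock libraries overlapped in both genotypes, and replicate 3 was highest and replicate 2 lowest in all 4 groups. The log2 difference was 0.14 in KO (95% interval -0.80 to 1.09, adjusted p = 0.821) and -0.16 in WT (95% interval -1.10 to 0.79, adjusted p = 0.783). With Mdm2 high and Mdm4 not called, the ratio of Mdm2 to Mdm4 reads was 18.7 ± 9.43 in KO dox and 5.47 ± 2.41 in KO mock, and 22.6 ± 10.3 in WT dox and 5.53 ± 1.47 in WT mock (SD, n = 3 each).

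The Mdm4 values carry a limit of their own, because a processed pseudogene, Mdm4-ps, annotated on chromosome X, was listed with its own reads. Mdm4-ps had 12.8 to 57.0 CPM, 56.2 to 74.2% of the Mdm4 value of the same library, and of all genes it was the one whose pattern over the 12 libraries lay nearest to that of Mdm4. How the counting shared reads between the 2 copies is not given in the sources used here, so the Mdm4 level is uncertain. Adding the reads of both left Mdm4 uncalled for doxorubicin in either genotype.

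**Figure D3:**
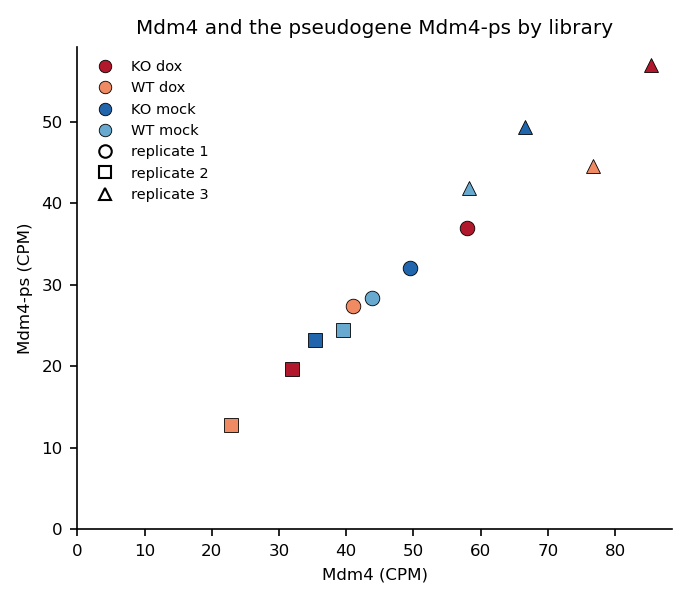
CPM of Mdm4 (horizontal axis) and of its processed pseudogene Mdm4-ps (vertical axis) in each of the 12 libraries, coloured by group with 1 symbol per replicate number. The points run together from replicate 2 at the lower left to replicate 3 at the upper right, with Mdm4-ps at 56.2 to 74.2% of Mdm4.

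Among the phosphatase arm, Ppm1d rose in both genotypes. It was at 24.2, 34.5 and 34.6 CPM in KO dox, against 13.2, 16.8 and 10.7 CPM in KO mock. In WT it was at 37.1, 55.1 and 50.5 CPM with doxorubicin, against 13.2, 14.0 and 11.5 CPM in mock. All 3 WT dox libraries lay above all 3 KO dox libraries, while the mock libraries of the genotypes overlapped. The log2 difference between doxorubicin and mock was 1.14 in KO (SE 0.21, adjusted p = 0.00185) and 1.79 in WT (SE 0.21, adjusted p = 7.72e-05).

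Ccng1, the commonest member, was at 1823, 1549 and 1621 CPM in KO dox, against 836, 917 and 928 CPM in KO mock. In WT dox it was at 1579, 1439 and 1557 CPM, against 781, 816 and 967 CPM in WT mock. KO dox replicate 1 was the highest, and the treated libraries lay well above the mock libraries in both genotypes. The log2 difference was 0.89 in KO (SE 0.12, adjusted p = 0.000311) and 0.84 in WT (SE 0.12, adjusted p = 0.000221).

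Trp53inp1, the positive regulator, was at 439, 340.2 and 560.0 CPM in KO dox, against 158, 109 and 269 CPM in KO mock. In WT it was at 455, 343 and 558 CPM with doxorubicin, against 160, 111 and 195 CPM in mock. The treated libraries of the genotypes were almost the same number by number, and replicate 3 was highest and replicate 2 lowest in every group, as for Mdm4. The log2 difference was 1.38 in KO (SE 0.32, adjusted p = 0.00744) and 1.54 in WT (SE 0.32, adjusted p = 0.00265). Per same-numbered pair the differences were 1.47, 1.63 and 1.06 in KO and 1.50, 1.62 and 1.51 in WT.

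Gtse1, the nuclear exporter of p53 in human cells, was at 142, 132 and 178 CPM in KO dox, against 70.2, 86.9 and 69.1 CPM in KO mock. In WT dox it was at 170, 158 and 203 CPM, against 65.4, 71.1 and 72.2 CPM in WT mock. Every treated library was above every mock library of either genotype. The log2 difference was 0.99 in KO (SE 0.14, adjusted p = 0.000500) and 1.33 in WT (SE 0.14, adjusted p = 4.74e-05). Genes of mitosis went the other way: of 19 measured, 17 fell and 2 rose in KO (median log2 difference -2.80), and 13 fell and 2 rose in WT (median -1.64), against medians over all genes of 0.035 in KO and 0.011 in WT. The 2 that rose in both were the microtubule genes Ckap2 (log2 difference 1.04 in KO and 2.01 in WT) and Mapre1 (0.59 and 0.84), while Top2a, the topoisomerase that doxorubicin traps, fell by 3.97 in KO and by 3.75 in WT. The 2 medians are not a like comparison of the genotypes. Listed genes lay above 2 CPM in every WT library, so mitotic genes that fell low in WT are absent, while those low only in KO stayed. Of the list, 24 genes were measured in mock cells. The interaction of genotype and doxorubicin passed for 0 of the 19.

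Trp53 has a divergent neighbour, Wrap53, whose first exon is separated from that of Trp53 by the 103 bases printed above. Wrap53 encodes a protein of Cajal bodies and telomerase, is no member, and was looked at after its values were seen. It was at 32.3, 54.6 and 81.1 CPM in KO dox, against 11.0, 13.3 and 10.2 CPM in KO mock. In WT it was at 74.6, 91.8 and 133 CPM with doxorubicin, against 9.28, 12.4 and 9.49 CPM in mock. The 2 neighbours were both higher in all treated libraries, and both lower in KO dox than in WT dox on average, but the change of Wrap53 was the greater: a log2 difference of 2.10 in KO (SE 0.30, adjusted p = 0.000508) and 3.12 in WT (SE 0.30, adjusted p = 3.14e-05). The annotated exons of the 2 genes do not overlap.

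**Figure D4:**
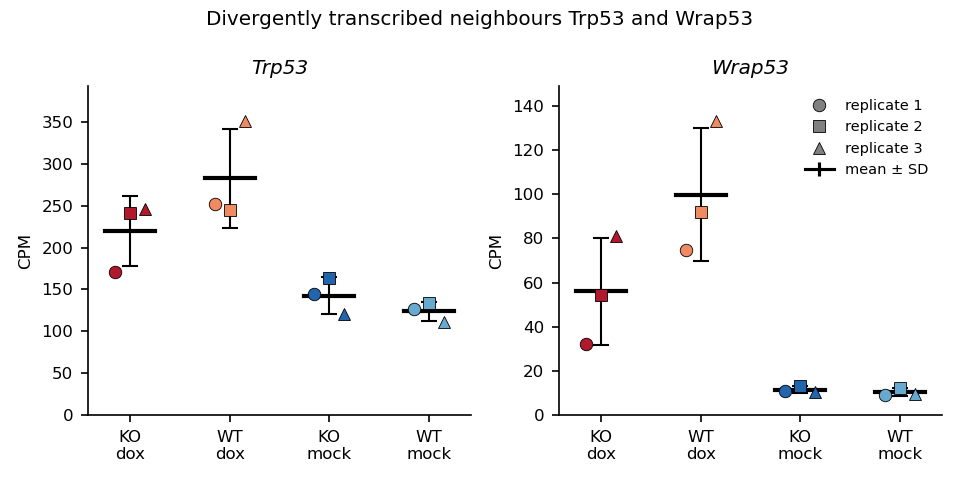
CPM of Trp53 (left panel) and of its divergent neighbour Wrap53 (right panel), each from 0, in KO dox, WT dox, KO mock and WT mock, with bars for the mean ± SD (n = 3). Mock libraries of Wrap53 stay between 9.28 and 13.3 CPM, and treated libraries between 32.3 and 133 CPM.

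The comparison of KO with WT asks whether loss of lincRNA-p21 changes the circuit with and without damage. In mock cells 0 of 7 members passed, as did 0% of 10648 genes (limma, smallest adjusted p = 0.199, with 440 genes at an unadjusted p under 0.05). Mean levels in KO mock and WT mock were 251 ± 33.7 and 252 ± 20.8 CPM for Mdm2, 50.5 ± 15.6 and 47.2 ± 9.80 CPM for Mdm4, 13.6 ± 3.07 and 12.9 ± 1.28 CPM for Ppm1d, and 894 ± 50.4 and 855 ± 98.9 CPM for Ccng1 (SD, n = 3 each). They were 179 ± 81.8 and 156 ± 42.6 CPM for Trp53inp1 and 75.4 ± 9.98 and 69.6 ± 3.63 CPM for Gtse1. The 6 log2 differences lay between -0.0078 and 0.14, and KO and WT mock libraries overlapped in every member. Trp53 differed the most, at 143 ± 22.0 CPM in KO mock and 124 ± 11.4 CPM in WT mock, a log2 difference of 0.19 (SE 0.14, 95% interval -0.13 to 0.52, adjusted p = 0.978). With the replicate number as a block 0.92% of genes were called, and again 0 members. Cdkn1a, the neighbour of lincRNA-p21, was at 304, 283 and 357 CPM in KO mock, against 578, 506 and 613 CPM in WT mock, lower in each KO library. Its log2 difference was -0.85 (SE 0.12), not called by limma without the block (adjusted p = 0.395) and called with it (adjusted p = 0.0223).

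After doxorubicin 0 of 7 members passed without the block, as did 0% of 11125 genes (smallest adjusted p = 0.0963, with 1246 genes at an unadjusted p under 0.05). With the replicate number as a block, 3 members were called, at a background of 25.3% of genes (11.8% higher and 13.6% lower), so a count of 3 does not set the members apart. The block stands beside the main values because same-numbered KO and WT libraries deviated together.

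Ppm1d was the firmest of the 3. It was at 31.1 ± 5.98 CPM in KO dox and 47.6 ± 9.35 CPM in WT dox (SD, n = 3 each), a log2 difference of -0.60 (SE 0.21, limma adjusted p = 0.443 unblocked and 0.00735 blocked). Every KO dox library lay below every WT dox library, as for 6.64% of genes, and the pairs differed by -0.60, -0.66 and -0.53. The blocked call remained without pair 1, 2 or 3 (adjusted p = 0.0459, 0.0112 and 0.0122).

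Mdm4 and Gtse1 were called by the blocked fit on less. Mdm4 was at 58.4 ± 26.7 CPM in KO dox and 46.9 ± 27.4 CPM in WT dox, a log2 difference of 0.37 (SE 0.48, limma adjusted p = 0.720 unblocked and 0.0358 blocked). Its pairs differed by 0.48, 0.47 and 0.15, each higher in KO, and its blocked call was kept without pair 3 (adjusted p = 0.0484) and lost without pair 1 or pair 2. Without the block, leaving out WT dox replicate 2 turned the difference to -0.052. With the Mdm4-ps reads added the difference was 0.41 (adjusted p = 0.0190 with the block). Gtse1 was at 151 ± 24.2 CPM in KO dox and 177 ± 23.5 CPM in WT dox, a log2 difference of -0.23 (SE 0.16, limma adjusted p = 0.509 unblocked and 0.0426 blocked). Its pairs differed by -0.26, -0.25 and -0.19, and its blocked call was lost without any 1 of the pairs.

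Trp53 was not called after doxorubicin, with or without the block. It was at 220 ± 42.0 CPM in KO dox and 283 ± 59.2 CPM in WT dox, a log2 difference of -0.36 (SE 0.20, 95% interval -0.82 to 0.10, limma adjusted p = 0.458 unblocked and 0.0522 blocked). Pairs 1 and 3 differed by -0.56 and -0.51 and pair 2 by -0.022, and without pair 2 the blocked fit called it lower in KO (-0.53, adjusted p = 0.00653). The neighbour Wrap53 was lower in every pair, with a log2 difference of -0.88 (SE 0.34, limma adjusted p = 0.443 unblocked and 0.00542 blocked). Mdm2, Ccng1 and Trp53inp1 differed by 0.093, 0.12 and -0.018 on the log2 scale, with 95% intervals of -0.22 to 0.41, -0.20 to 0.45 and -0.56 to 0.53, and were not called with the block. Mdm2 was thus at 928 ± 3.33 CPM in KO dox and 875 ± 107 CPM in WT dox while the Trp53 RNA mean lay the other way.

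**Figure D5:**
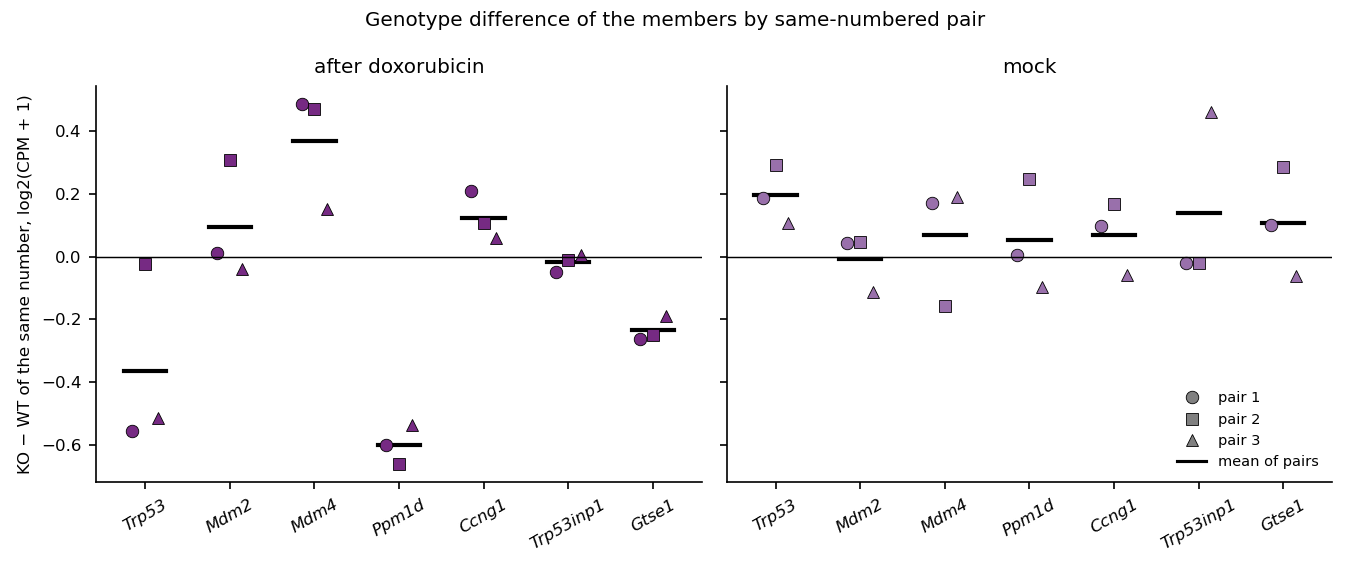
Log2 difference of KO minus WT of the same replicate number (vertical axis, log2(CPM + 1) scale) for each member, after doxorubicin (left) and in mock cells (right), with 1 symbol per pair and a line at the mean. After doxorubicin the Ppm1d pairs lie between -0.66 and -0.53, and in mock cells the pairs of most members lie on both sides of 0.

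Whether the response to doxorubicin differed between genotypes was tested as an interaction. It passed for 0 of 7 members and for 0% of 10292 genes (limma, smallest adjusted p = 0.922, with 468 genes at an unadjusted p under 0.05; with the block 0 genes, smallest adjusted p = 0.171). The estimates, as the KO minus the WT response on the log2 scale, were lowest for Ppm1d at -0.65 (SE 0.29, limma adjusted p = 0.922 unblocked and 0.251 blocked) and Trp53 at -0.56 (SE 0.26, limma adjusted p = 0.922 unblocked and 0.307 blocked). Gtse1 had -0.34, Trp53inp1 -0.16, Ccng1 0.055, Mdm2 0.10 and Mdm4 0.30. For Cdkn1a, whose KO mock level was the lower, the estimate was 0.63 (adjusted p = 0.922, and 0.196 with the block). No member passed over all genes at this number of libraries, although the 95% interval, not adjusted over genes, excluded 0 for Ppm1d (-1.29 to -0.012) and reached just past it for Trp53 (-1.12 to 0.0040).

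The members differed in how much of their spread followed the replicate number. The number accounted for 91.9% of the within-group spread of Trp53inp1 and 85.9% of that of Mdm4, above the median of 61.0% over all genes, as a description. For Ppm1d it was 49.8%, for Gtse1 26.2%, for Ccng1 23.3%, for Trp53 14.9% and for Mdm2 6.79%. Some share arises even where the number has no effect, so low shares are no evidence of one. Mdm4 and Trp53inp1 also had the widest within-group SD of the set, 0.61 and 0.46 on the log2 scale, against 0.12 for Ccng1 and 0.15 for Mdm2. The libraries numbered 3 were the highest and those numbered 2 the lowest of their group for both.

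Patterns over the 12 libraries were compared by the root mean square difference of log2(CPM + 1) after centring each gene on its mean. Within the set the closest pair was Trp53 and Gtse1 (0.21) and the farthest was Mdm2 and Mdm4 (1.06). Outside the set the nearest genes to Trp53 were Mlf2 (0.10), Tubb2c (0.11) and Creld2 (0.12). Those nearest to Mdm2 were Sh3bgrl3 (0.16), Wdr91 (0.18) and Klhl26 (0.20), and to Ppm1d Akr1b3 (0.092), Dnajc9 (0.12) and Taf4b (0.13). For Ccng1 they were Aen (0.085), Zbtb26 (0.12) and Eme2 (0.12), and for Gtse1 Slc33a1 (0.086), Hsd17b4 (0.10) and Gtf3a (0.10). For Mdm4 they were Mdm4-ps (0.10), Cdkn2a (0.23) and Zfp826 (0.24), and for Trp53inp1 Ank3 (0.16), Rnf167 (0.18) and Usp2 (0.19).

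Other genes that act on p53 or Mdm2 were counted by list, beside shares over all genes of 19.9% higher and 14.6% lower in KO and 25.9% higher and 21.4% lower in WT. No list was tested against these shares or against the members. Of 20 measured ubiquitin ligases and deubiquitinases of p53, 3 rose and 2 fell in KO, and 7 rose and 5 fell in WT. Usp2, a deubiquitinase of Mdm2, rose with a log2 difference of 1.21 in KO and 1.59 in WT, and Wwp1, a ligase, with 0.65 and 0.81. The list median was 0.011 in KO and 0.11 in WT, and turned negative with quantile normalization (-0.066 and -0.017) and median centring (-0.074 and -0.00099). Under either other scaling 3 were higher and 4 lower in KO, and in WT 2 were higher and 6 (quantile) or 5 (median) lower. Of 17 p53 kinases, 2 rose and 2 fell in KO, and 4 rose and 4 fell in WT. With quantile normalization 2 kinases were higher and 4 lower in KO and 1 higher and 7 lower in WT, with median centring 2 and 6 in KO and 1 and 8 in WT, and with the replicate block 2 and 5 in KO and 5 and 7 in WT. The stress kinases Mapk9 and Mapk8 went opposite ways, with log2 differences of 0.88 and -0.55 in KO and 1.28 and -1.01 in WT, and the checkpoint kinase Chek1 had -1.56 in KO and -0.61 in WT.

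Of 14 measured inhibitors and partners of Mdm2, 2 rose and 3 fell in either genotype. That split depended on the fit: with quantile normalization 1 was higher and 5 lower in KO and 2 higher and 6 lower in WT, with median centring 0 and 6 in KO and 2 and 7 in WT, and with the replicate block 3 and 7 in KO and 3 and 8 in WT. Mtbp, an Mdm2 binding protein, fell by 1.96 on the log2 scale in KO and by 1.74 in WT, and Rpl5, a ribosomal protein that binds Mdm2 under nucleolar stress, by 0.49 and by 0.65. Daxx and Yy1 rose in both (0.46 and 0.29 in KO, 0.51 and 0.42 in WT), and both lost the KO call under median centring, Yy1 also under quantile normalization. Of 9 PP2A subunits, the phosphatase that cyclin G1 brings to Mdm2, 2 rose and 2 fell in KO and 3 rose and 3 fell in WT (under the other scalings 1 or 2 higher and 3 lower in KO, and 2 higher and 4 lower in WT). The regulatory subunit gene Ppp2r5d stood out in size, at 265 CPM in KO dox and 101 CPM in KO mock, and 368 CPM in WT dox and 90.3 CPM in WT mock, log2 differences of 1.36 (SE 0.19, adjusted p = 0.000400) and 2.00 (SE 0.19, adjusted p = 2.89e-05). Its relatives Ppp2r5b and Ppp2r5c fell by 0.70 and 0.39 in KO and by 1.22 and 0.46 in WT.

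Of 23 cofactors and modifiers of p53, 2 rose and 4 fell in KO, and 4 rose and 5 fell in WT, with 10 WT genes lower under either other scaling. Ppp1r13l, which encodes the p53 inhibitor iASPP, rose by 1.60 in KO and 1.83 in WT, and Pml, the organiser of nuclear bodies, by 1.31 and 1.44. Hmgb1, a chromatin protein, fell by 1.35 in KO and by 1.10 in WT, and the methyltransferase gene Carm1 by 0.76 and by 0.99. Of 12 measured paralogues of the members, Ccng2, the relative of Ccng1, rose in both genotypes (log2 difference 0.52 in KO and 0.72 in WT). It was the 1 paralogue called higher in KO, against 4 in WT, and 0 fell in either, while 1 was called lower in each genotype under both other scalings and with the block. Canonical p53 target genes other than the members rose in 17 of 26 in KO (median log2 difference 0.65) and 19 of 26 in WT (median 0.80), with 0 lower, and 15 and 16 rose under either other scaling. Among them, Perp, a desmosome and apoptosis gene, had 3.88 in KO and 4.92 in WT, and Trp53i11 2.86 and 3.47. The differences of the 6 called members, 0.61 to 1.89, lay inside the range of these targets, while Mdm4 in WT (-0.16) lay below the lowest of them (Bbc3, 0.033).

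None of these lists had a gene called between KO and WT without the block. With the block after doxorubicin, beside 11.8% of all genes higher and 13.6% lower, the canonical targets had 3 higher and 4 lower in KO of 27 measured, the Mdm2 inhibitors and partners 4 higher and 0 lower of 14, and the mitotic genes 0 higher and 9 lower of 19. The cofactors had 6 higher and 2 lower of 23, the kinases 5 and 3 of 17, the ligases and deubiquitinases 2 and 2 of 20, the PP2A subunits 2 and 2 of 9, and the paralogues 1 and 1 of 12. All listed genes lay above 2 CPM in every WT library, so a gene low only in WT could be absent from these counts. That can tilt the counts toward lower in KO, by an amount that was not tested. Of the mitotic genes, 24 were measured in mock cells and 19 after doxorubicin. In mock cells the block called 4 mitotic genes higher in KO, beside 0.563% of all genes. All 24 measured had a KO mean above that of WT on the log2 scale, with a median difference of 0.44. The median over all genes was also above WT, at 0.058, and the share of all genes with a higher KO mean was not counted. Fdxr, a mitochondrial reductase gene, was at 21.9 CPM in KO dox and 43.5 CPM in WT dox (log2 difference -0.97, adjusted p = 0.00440 with the block). Trp53i11 was at 89.4 and 137 CPM (-0.63, adjusted p = 0.00858) and Phlda3, an Akt inhibitor gene, at 271 CPM in KO dox and 201 CPM in WT dox (0.42, adjusted p = 0.0168). Ppp2r5d was at 265 CPM in KO dox and 368 CPM in WT dox (-0.49, adjusted p = 0.00847), and Ppp1r13l and Pml were lower in KO dox as well (-0.36 and -0.31, adjusted p = 0.0396 and 0.0299).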

How the data were processed

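RNA from 12 MEF libraries in 4 groups was measured with a stranded mRNA kit, per the labels' protocols. The authors deposited CPM per gene in 2 tables, 1 per treatment, and per the submitters' processing notes the assembly was NCBIM37 and the tools, given without roles, were HTSeq, edgeR and TopHat2 2.0.6. Within a tolerance of 0.001 reads, 100% of values were whole reads over a single total per library, which puts both tables on the same scale. All listed genes lay above 2 CPM in every WT library of their table, while 164 mock and 313 doxorubicin genes were no higher than 2 CPM in some KO library. This does not touch the members, which were listed throughout, but it can tilt counts over lists or over all genes toward lower in KO.

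Each contrast was fitted in limma 3.58.1 (R 4.3.3, lmFit and trended eBayes) on log2(CPM + 1), which understates the change of low genes, adjusted by Benjamini-Hochberg at 0.05 over all genes. The doxorubicin and interaction terms were fitted on all 12 libraries, and KO against WT on the 6 libraries of a table. Same-numbered libraries deviated together across genes (r = 0.712 to 0.856 between KO mock and WT mock, 0.668 to 0.781 between KO dox and WT dox, 0.428 to 0.728 between KO dox and KO mock, 0.394 to 0.517 between WT dox and WT mock). This pairing comes from the data, not the labels, and blocked values stand where they change a call. The fit was also run on simulated data, with the same residual SD for all genes and planted changes larger than the genotype differences of the members. That run does not cover gene-specific spread or small differences. Unblocked p-values measure the spread between these replicates. Blocked p-values measure the spread left after the deviation shared by each replicate number is removed.

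Every member was named, with the 3 genes nearest in pattern, Cdkn1a, and the called genes with the largest differences of each list. The members and lists were chosen with earlier results of these data known. Exon lengths come from GENCODE on GRCm38 and promoters from RefSeq on GRCm38.p6, which differ from the assembly of the submitters. Alternatives were other pseudocounts, a filter, 2 scalings, replicate blocks, 1 fit of all libraries and leaving out each library.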

Additional observations from a re-analysis of the deposited data

Results flagged for a closer look

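Trp53 was the 1 member of 7 whose genotype difference pointed one way in every same-numbered pair of mock cells and the other way in every pair after doxorubicin. In mock cells KO exceeded WT by 0.18, 0.29 and 0.11 on the log2 scale in pairs 1, 2 and 3 (median 0.18). After doxorubicin the differences were -0.56, -0.022 and -0.51 (median -0.51). The sign pattern itself was not tested. In the direction of Trp53, KO higher in every mock pair and lower in every treated pair, it was found in 635 of 10292 genes (6.17%). Genes with the opposite pattern were not counted, so the share for a turn in either direction is not known. The interaction term that compares the 2 differences was -0.56 (SE 0.26) and did not pass over all genes (limma, adjusted p = 0.922, and 0.307 with the replicate block).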

How the results depend on the processing

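The doxorubicin response of the members depended little on the processing. The 6 called members were called higher in both genotypes under the other pseudocounts, the filter, both scalings and both replicate blocks, except for Trp53 in KO cells, which was lost without 4 of the single libraries and in the blocked fit without pair 2 (adjusted p = 0.0578). The paired analysis, with the replicate number as a block, changed no doxorubicin or interaction call of a member. It changed the count of all genes called for doxorubicin in KO to 5524, for KO against WT in mock to 98 and for KO against WT after doxorubicin to 2820, and the members called in the last to 3. With 1 pair left out (chosen after seeing the data), the blocked counts without pair 1, 2 and 3 were 4, 0 and 2438 genes in mock, with 1 member (Trp53) called without pair 3, and 692, 2590 and 1560 genes after doxorubicin, with 1, 2 and 2 members. Fitting all 12 libraries together called 5 genes in mock and 2 after doxorubicin, and a pseudocount of 0.1 called 1 gene after doxorubicin.

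Signs turned in differences that were not called without the block. Among them was Mdm4 for KO against WT after doxorubicin, which the block did call and which was -0.052 without the block and without WT dox replicate 2. In the blocked fit with 1 pair left out signs turned for Mdm4 for doxorubicin in WT without pair 2 (0.15), Mdm2 for KO against WT without pair 3 in mock (0.045) and without pair 2 after doxorubicin (-0.014), Ppm1d in mock without pair 2 (-0.045) and Trp53inp1 in mock without pair 3 (-0.019). Ppm1d in mock also turned with quantile normalization (-0.022) and median centring (-0.0099). Without 1 library at a time, Mdm4 ran from -0.18 to 0.52 for doxorubicin in KO and from -0.59 to 0.26 in WT. The interaction ran from -0.0034 to 0.19 for Mdm2, -0.12 to 0.73 for Mdm4, -0.037 to 0.12 for Ccng1 and -0.46 to 0.18 for Trp53inp1. KO against WT in mock ran from -0.10 to 0.094 for Mdm2, -0.15 to 0.30 for Mdm4, -0.10 to 0.20 for Ppm1d and -0.20 to 0.44 for Trp53inp1, and after doxorubicin from -0.011 to 0.16 for Mdm2, -0.052 to 0.80 for Mdm4 and -0.20 to 0.16 for Trp53inp1. The cause was not tested. The planned count test on reads recovered from the CPM steps was not run, although the steps gave whole reads, so its effect on the calls is not known.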
